A study of Mus musculus with 4 samples.

Results

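The Wnt, Fgf, Bmp and hedgehog ligand genes were examined for the binding of Dzip3 and Ring1B and for ubH2A in mES cells. They are 50 genes chosen by name from the 22380 protein-coding genes of the GENCODE annotation of mm9, namely 19 Wnt, 22 Fgf, 6 Bmp and 3 hedgehog genes. The rule used no measured value. For every gene, all listed peaks with at least 1 bp within 10 kb of an annotated transcription start site (TSS) were collected from 4 ChIP-seq peak lists. A single library was made for Dzip3, Ring1B and ubH2A and for the input DNA, so that no comparison has a replicate error and no p-values were computed. All 4 came from E14 mES cells of strain 129/Ola at passages 3 to 5, without feeders on gelatin at 0.5%, in N2B27 medium with 1 μM of the MEK inhibitor PD0325901, 3 μM of CHIR99021 and 1000 U/ml of LIF (2i + LIF), and were fixed for 10 min in formaldehyde at 1%. No untreated, differentiated or knockdown library belongs to these lists. E14 is a single line of mouse embryonic stem cells, and no RNA was measured in these libraries, so its label could not be checked by expression. Library sizes implied by the listed RPM values were 48.3 to 67.0 M reads. The lists reach down to a peak height of 31 extended reads for Ring1B, 33 for Dzip3, 32 for ubH2A and 15 for input DNA, and weaker binding was not detectable as a peak.

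Wnt proteins signal through Frizzled receptors to β-catenin or to the cytoskeleton, Fgf proteins through receptor tyrosine kinases to the MEK-ERK cascade, Bmp proteins through serine/threonine kinase receptors to Smad proteins, and hedgehog proteins through Patched and Smoothened to Gli factors. These secreted factors pattern the embryo after the pluripotent stage, and the medium acts on the same pathways, since CHIR99021 inhibits the kinase GSK3, which marks β-catenin for degradation and PD0325901 inhibits MEK. Ring1B is the catalytic E3 ligase of Polycomb repressive complex 1, which ubiquitylates histone H2A (ubH2A) at silent developmental genes that often have CpG-rich promoters, and Dzip3 is another E3 ligase for H2A.

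The genomic sequence under the strongest Ring1B peak of each family is shown first, because these peaks carry the highest values below. Each run was read from the mm9 genome, plus strand, 5′ to 3′, with the CG dinucleotides in capitals. The Wnt1 run (chr15:98622234-98622533) lies in the gene body over coding sequence and intron and holds 18 CG in 300 bases. The Fgf12 run (chr16:28446379-28446678) lies upstream of the TSS and holds 44 CG in 300 bases. The Bmp6 run (chr13:38436911-38436994) is the 84 bases of the peak that lie upstream of the gene and outside its annotated untranslated region, with 7 CG. The Dhh run (chr15:98725373-98725672) lies in the gene body over coding sequence and intron, with 17 CG in 300 bases.
Wnt1: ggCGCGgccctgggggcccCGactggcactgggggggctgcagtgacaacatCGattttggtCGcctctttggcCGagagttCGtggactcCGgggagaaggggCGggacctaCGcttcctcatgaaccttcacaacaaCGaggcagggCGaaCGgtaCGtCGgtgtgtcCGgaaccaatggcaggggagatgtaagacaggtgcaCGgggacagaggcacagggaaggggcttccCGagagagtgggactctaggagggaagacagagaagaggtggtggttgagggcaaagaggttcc
Fgf12: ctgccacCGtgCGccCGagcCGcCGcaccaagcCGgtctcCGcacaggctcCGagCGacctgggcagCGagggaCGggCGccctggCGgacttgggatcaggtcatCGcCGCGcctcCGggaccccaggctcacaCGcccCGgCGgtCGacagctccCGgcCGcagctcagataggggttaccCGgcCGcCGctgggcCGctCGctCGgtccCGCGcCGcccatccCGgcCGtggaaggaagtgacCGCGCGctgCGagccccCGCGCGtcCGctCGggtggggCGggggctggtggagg
Bmp6: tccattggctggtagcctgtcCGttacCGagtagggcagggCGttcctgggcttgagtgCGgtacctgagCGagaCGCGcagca
Dhh: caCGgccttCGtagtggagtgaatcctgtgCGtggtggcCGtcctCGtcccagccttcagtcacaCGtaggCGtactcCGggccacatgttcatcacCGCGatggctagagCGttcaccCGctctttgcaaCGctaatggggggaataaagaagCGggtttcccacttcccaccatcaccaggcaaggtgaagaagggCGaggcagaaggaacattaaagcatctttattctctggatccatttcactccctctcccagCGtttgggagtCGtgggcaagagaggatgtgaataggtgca

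Ring1B was the protein found most often at these genes. A Ring1B peak lay within 10 kb of 25 of the 50 ligand genes, a share of 50% (95% Wilson interval 36.6% to 63.4%), against 14.2% of all protein-coding genes. The intervals here and below cover counting error only. Dzip3 peaks were near 4 of the 50 genes (8.0%, 3.15% to 18.8%), against 6.37% of all genes. For ubH2A the list was complete around 43 of the genes, and 4 of these had a peak (9.30%, 3.68% to 21.6%), against 6.79%. No input peak was found near the 43 genes with a complete input list, which allows a share of up to 6.98% (3 counts of 43), against 3.01% of all genes. The Dzip3 and ubH2A shares of the ligand genes thus differed from the background by less than their intervals, while the interval of the Ring1B share lay above it. Genes without a complete ubH2A and input list were Wnt3, Wnt3a, Wnt9a, Wnt9b, Fgf11, Fgf18 and Fgf22.

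**Figure D1:**
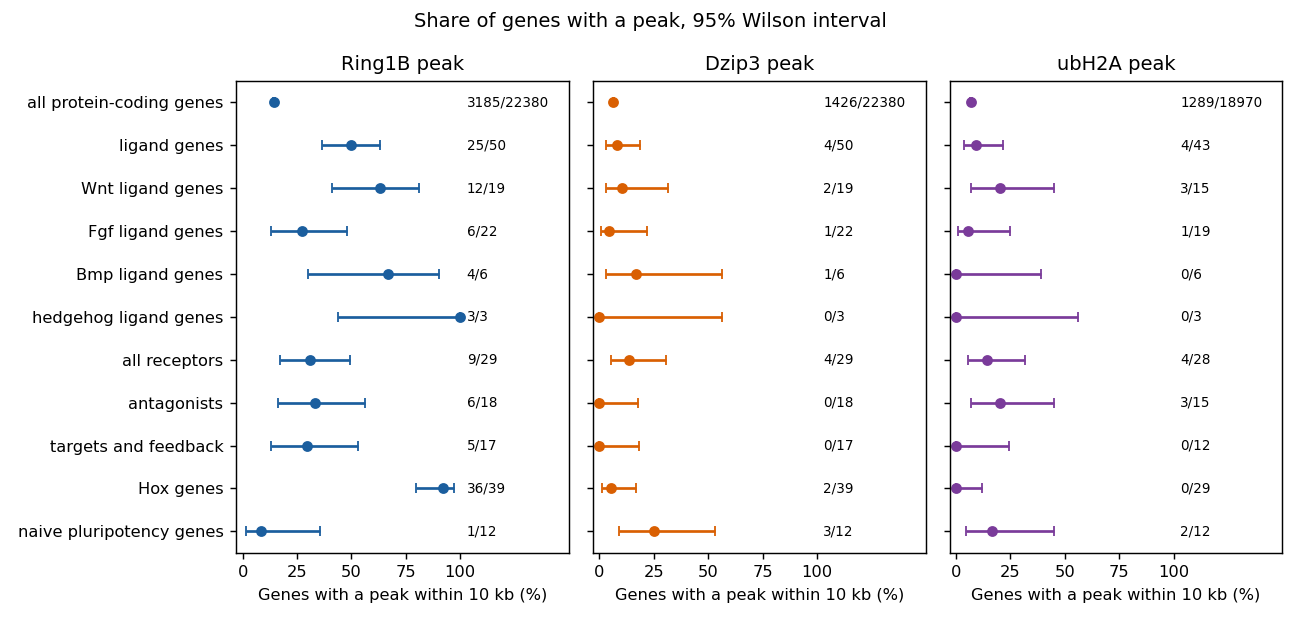
Share of genes (x axis, %) with a Ring1B, Dzip3 or ubH2A peak within 10 kb of a TSS, for all protein-coding genes, the ligand genes and the lists they are compared with. Points are shares, bars are 95% Wilson intervals and the numbers give genes with a peak over genes with a complete list; the Ring1B share is 50% for the ligand genes and 14.2% for all genes, while their Dzip3 and ubH2A shares (8.0% and 9.30%) have intervals that include those of all genes.

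By family, the share of members with Ring1B ran from 27.3% of the Fgf genes to 100% of the hedgehog genes. Of the 19 Wnt genes, 12 had a Ring1B peak (63.2%, 41.0% to 80.9%), namely Wnt1, Wnt2b, Wnt3, Wnt3a, Wnt5a, Wnt5b, Wnt6, Wnt7a, Wnt7b, Wnt9b, Wnt10b and Wnt11. Of the 22 Fgf genes, 6 had one (27.3%, 13.2% to 48.2%), namely Fgf3, Fgf5, Fgf8, Fgf9, Fgf12 and Fgf15. The Bmp genes with a Ring1B peak were Bmp2, Bmp3, Bmp6 and Bmp7, 4 of 6 (66.7%, 30.0% to 90.3%). All 3 hedgehog genes, Shh, Ihh and Dhh, had Ring1B peaks (100%, 43.9% to 100%). The Fgf interval overlapped those of the Wnt, Bmp and hedgehog genes, so that the order of the families was not resolved by counting error, and it reached down to 13.2%, below the 14.2% of all genes.

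Within the Fgf family, the 6 genes belonged to 6 different subfamilies, with 1 gene in each. Fgf3 was the member among Fgf3, Fgf7, Fgf10 and Fgf22, which signal between epithelium and mesenchyme. Fgf5, which is expressed in the epiblast after implantation, was the member among Fgf4, Fgf5 and Fgf6. Fgf8, an organizer of the gastrula, midbrain and limb, was the member among Fgf8, Fgf17 and Fgf18. Fgf9 stood alone beside Fgf16 and Fgf20, and Fgf15, the gut hormone of bile acid control, beside Fgf21 and Fgf23. Fgf12 was the member among Fgf11, Fgf12, Fgf13 and Fgf14, which remain inside the cell and bind sodium channels instead of Fgf receptors. Neither Fgf1 nor Fgf2 had a Ring1B peak.

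Members with no peak of any list within 10 kb were 23 of the 50. They comprised the Wnt genes Wnt2, Wnt4, Wnt8a, Wnt8b, Wnt10a and Wnt16 and the Bmp genes Bmp4 and Bmp5. The Fgf genes without a peak were Fgf2, Fgf4, Fgf6, Fgf7, Fgf10, Fgf11, Fgf13, Fgf14, Fgf16, Fgf17, Fgf18, Fgf20, Fgf21, Fgf22 and Fgf23. Fgf11, Fgf18 and Fgf22 among them were checked against the Dzip3 and Ring1B lists only. Fgf4, the main Fgf made by mES cells themselves, and Bmp4, which supports self-renewal together with LIF, were thus among the genes without a peak. Of the 25 genes without a Ring1B peak within 10 kb, the nearest Ring1B peak was 15.5 to 800 kb from a TSS, with a median of 141 kb. The nearest values were 15.5 kb at Wnt9a, 16.05 kb at Wnt4 and 17.8 kb at Wnt8b. For Dzip3, the closest peaks beyond 10 kb were 13.2 kb from Wnt1 and 16.1 kb from Fgf9. The one closest to Wnt1 is the Dzip3 peak already counted at its neighbour Wnt10b.

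The Ring1B peaks were close to the TSS. Around the 25 genes there were 64 distinct Ring1B peaks, of which 1 was shared by Wnt1 and Wnt10b, whose closest TSSs are 11.7 kb apart. A TSS was spanned by 21 of the 64 peaks, and a further 30 lay within 1 kb of one, 8 between 1 and 4 kb and 5 between 4 and 10 kb. The 5 farthest were 2 peaks at Bmp genes and 3 at hedgehog genes, counting each peak from its closest member. In all 25 genes the nearest Ring1B peak was within 1 kb of a TSS, and in 17 it spanned one. Of all protein-coding genes, 2238 had a Ring1B peak within 4 kb of a TSS and 3185 within 10 kb, compared with 25 ligand genes at either distance. The share within 1 kb is not given here for all genes. By annotation, 21 of the 64 peaks spanned a TSS, 18 lay in introns, 17 touched exons, 7 were upstream and 1 was downstream of its gene.

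**Figure D2:**
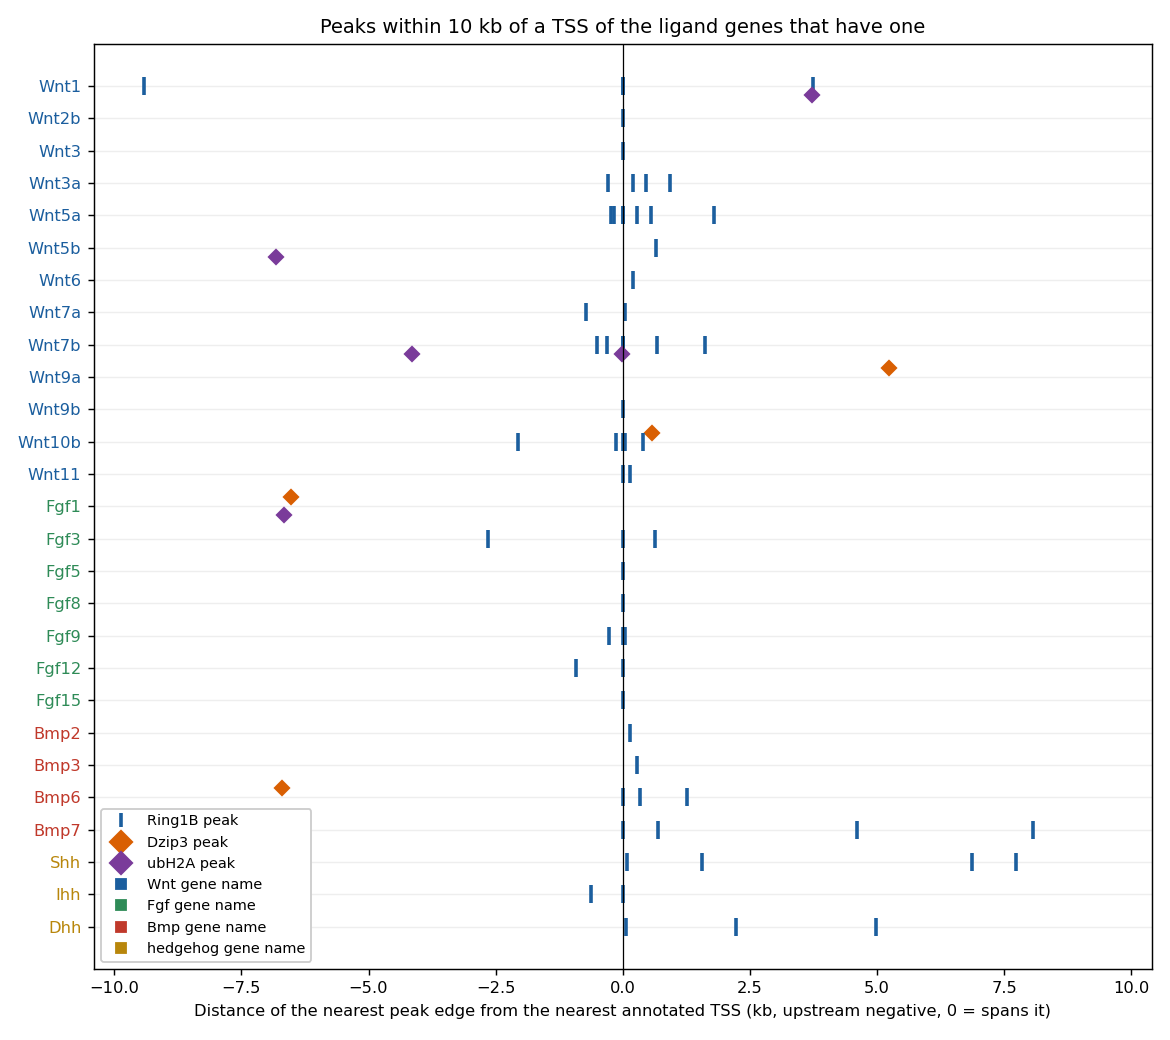
Distance from the nearest TSS (x axis, kb, upstream negative, 0 where the peak spans a TSS) of each peak within 10 kb, for the 27 ligand genes that have one (rows, names coloured by family). Blue ticks are Ring1B peaks, orange and purple diamonds are Dzip3 and ubH2A peaks; most Ring1B ticks stand within 1 kb of 0, and those of Bmp7, Shh and Dhh reach farther into the gene.

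More than 1 Ring1B peak was listed at 15 of the 25 genes (60%), compared with 35.0% of all genes with a Ring1B peak. Wnt5a and Wnt7b had 7 peaks each, Wnt10b had 5, and Wnt1, Wnt3a, Bmp7 and Shh had 4. The length covered by Ring1B peaks within 10 kb was greatest at Wnt7b, with 4.50 kb, followed by Wnt1 with 3.58 kb, Dhh with 3.13 kb, Ihh with 2.86 kb and Shh with 2.63 kb. Wnt5b, with 1 peak of 220 bp, had the least. The median length of the 64 peaks was 390 bp, against 326 bp for the 4904 Ring1B peaks within 10 kb of any protein-coding gene.

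Some ligand genes are neighbours, and their Ring1B peaks were counted for each. Of the 8 pairs of members with TSSs within 100 kb of each other, both genes had Ring1B in Wnt1 and Wnt10b, in Wnt3 and Wnt9b and in Fgf3 and Fgf15. Only the first gene of the pair had Ring1B in Wnt3a and Wnt9a (16.2 kb apart), in Wnt6 and Wnt10a (19.6 kb) and in Fgf3 and Fgf4 (22.8 kb). Fgf4, which lies between Fgf3 and Fgf15, had no peak although both of its neighbours did. Fgf6 and Fgf23 (57.4 kb apart) both lacked peaks.

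Signal was compared as the reads of each library in the peak per M reads of the library and per kb of peak, below called the level. In the strongest Ring1B peak of each of the 25 genes, the Ring1B level ran from 5.64 at Wnt3 to 12.2 at Dhh, with a median of 6.98, and the median over the 3185 genes with a Ring1B peak was 6.23. Of the 25 genes, 11 (44.0%) were above the upper quartile of all genes, 7.31, and 2 were below the lower quartile, 5.66. At these peaks the median Dzip3 level was 0.998, the median ubH2A level 0.707 and the median input level 0.148. Ring1B exceeded Dzip3 in 25 of 25 peaks, and Dzip3 exceeded input DNA in 24 and ubH2A exceeded input DNA in 23. These counts are not given here for the strongest peaks of all genes. Since the peaks were chosen on Ring1B, the Ring1B level itself is a description.

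**Figure D3:**
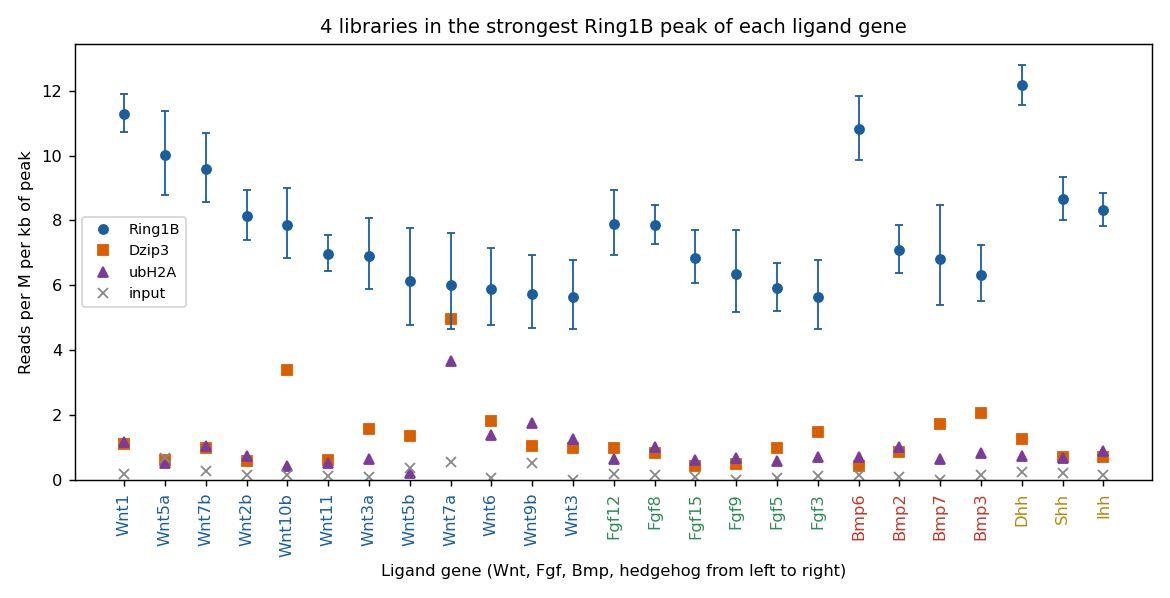
Level of the 4 libraries (y axis, reads per M per kb of peak) in the strongest Ring1B peak of each of the 25 ligand genes (x axis, grouped by family and ordered by Ring1B); bars on Ring1B are 95% Poisson counting intervals. Ring1B runs from 5.64 to 12.2, the input crosses stay at or below 0.668, and the Dzip3 squares of Wnt7a and Wnt10b stand above those of the other genes.

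Dhh, the hedgehog ligand of Schwann and Sertoli cells, had the highest level of all members in a listed Ring1B peak. Its peak of 2431 bp (chr15:98724308-98726739) began 2.23 kb inside the gene and held 1532 Ring1B, 163 Dzip3, 122 ubH2A and 30 input reads. This is a Ring1B level of 12.2 (95% Poisson interval 11.6 to 12.8), 47.6 times the input level (33.2 to 70.9). The other Ring1B peaks of Dhh were weaker, with levels of 6.37 and 5.07. Shh, the ligand of the notochord and floor plate, had its strongest peak at the 3′ side of the gene, 7.74 kb from the TSS (chr5:28784421-28785906), with 666 Ring1B, 55 Dzip3, 67 ubH2A and 16 input reads and a level of 8.66 (8.02 to 9.35). Ihh, the ligand of growth plate cartilage, had a peak of 2521 bp that spanned a TSS (chr1:74996288-74998809), the longest of the 64, with 1087 Ring1B, 96 Dzip3, 149 ubH2A and 18 input reads and a level of 8.33 (7.84 to 8.84). The Dhh interval did not overlap those of Shh and Ihh, whose intervals overlapped each other. It overlapped those of Wnt1 (10.7 to 11.9) and Bmp6 (9.86 to 11.8), so that the first rank over all members was not resolved. The hedgehog genes also had the largest median distance of a family, 1.55 kb from the TSS for their 9 peaks, compared with 209 bp for the 35 Wnt peaks. These 9 peaks came from 3 genes with 1 or 2 annotated TSSs each, while the Wnt genes with Ring1B have 1 to 6. Distances were taken to the nearest TSS, and the part of the TSS number was not tested.

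Among the Wnt genes, Wnt1, which maintains the midbrain and hindbrain boundary, had the highest level in a listed Ring1B peak. Its peak of 2478 bp (chr15:98621145-98623623) contains the sequence printed above and held 1448 Ring1B, 147 Dzip3, 194 ubH2A and 21 input reads, a level of 11.3 (10.7 to 11.9). Wnt5a, a ligand of axis and limb outgrowth that acts largely without β-catenin, followed with 241 Ring1B, 15 Dzip3, 16 ubH2A and 15 input reads and a level of 10.0 (8.79 to 11.4). At this peak, 1 of 7 at Wnt5a, the Dzip3 and ubH2A levels were 0.606 and 0.513, no higher than the input level of 0.668. Their ratios to input were 0.907 (0.413 to 1.99) and 0.769 (0.356 to 1.67). The Wnt5a peaks were mixed in this. Beside it (chr14:29318377-29318922), with 2 input reads, Dzip3 was 12.7 times (3.20 to 110) and ubH2A 20.9 times input DNA (5.53 to 177). In another Wnt5a peak (chr14:29323699-29323940) these ratios were 0.648 and 0.206. Wnt7b, a ligand of lung and placental development, had 321 Ring1B, 34 Dzip3, 45 ubH2A and 9 input reads in its strongest peak and a level of 9.60 (8.58 to 10.7). The Wnt5a interval overlapped those of Wnt1 and Wnt7b, which did not overlap each other. The other Wnt genes had levels of 5.64 to 8.14, and Wnt3, the Wnt ligand of the primitive streak, was the lowest.

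The Bmp and Fgf genes reached their highest levels in Bmp6 and Fgf12. Bmp6 had 474 Ring1B, 20 Dzip3, 40 ubH2A and 6 input reads in a peak that spanned its TSS (chr13:38436911-38437758), a level of 10.8 (9.86 to 11.8). The Dzip3 level there was 0.443, so that Ring1B was 24.4 times Dzip3 (15.6 to 40.3), the highest ratio of the 25 peaks. Bmp2, which is needed for heart and amnion development, had 361 Ring1B, 45 Dzip3, 68 ubH2A and 4 input reads and a level of 7.08 (6.37 to 7.85). Bmp7 was at 6.81 and Bmp3, an antagonist within the family, at 6.33. Fgf12 had 246 Ring1B, 32 Dzip3, 26 ubH2A and 5 input reads in a peak 915 bp upstream of its TSS (chr16:28446228-28446830), a level of 7.89 (6.94 to 8.94). Fgf8 had 649 Ring1B, 71 Dzip3, 109 ubH2A and 12 input reads in a peak of 1596 bp, a level of 7.86 (7.26 to 8.48), and could not be told apart from Fgf12. Fgf15 had 284 Ring1B, 18 Dzip3, 33 ubH2A and 4 input reads and a level of 6.85 (6.08 to 7.69). Fgf9, Fgf5 and Fgf3 were lower, at 6.36, 5.91 and 5.64.

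Dzip3 peaks were near 4 genes, and at 1 of these the Dzip3 peak overlapped a Ring1B peak. Since these regions were called on Dzip3, and the ubH2A peaks described after them on ubH2A, their ratios to the other libraries are descriptions. The sequences of the Dzip3 peaks at Wnt10b and Wnt9a are shown because these are the Dzip3 peaks inside a ligand gene, a choice made after their values were seen. The Wnt10b run (chr15:98606913-98607112) lies over coding sequence and intron and holds 23 CG in 200 bases. The Wnt9a run (chr11:59125669-59125922) is intronic and holds 4 CG in 254 bases.
Wnt10b: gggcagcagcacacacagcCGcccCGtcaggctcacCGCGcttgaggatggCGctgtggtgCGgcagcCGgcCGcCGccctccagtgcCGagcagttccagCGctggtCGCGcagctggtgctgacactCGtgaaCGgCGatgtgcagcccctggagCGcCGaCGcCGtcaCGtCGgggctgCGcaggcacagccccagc
Wnt9a: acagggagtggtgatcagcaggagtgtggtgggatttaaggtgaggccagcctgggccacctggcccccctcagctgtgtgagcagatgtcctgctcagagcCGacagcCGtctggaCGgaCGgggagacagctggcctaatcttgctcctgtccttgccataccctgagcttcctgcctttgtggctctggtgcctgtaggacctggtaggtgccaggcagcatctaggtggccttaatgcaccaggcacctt

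At Wnt10b, a ligand that favours bone over fat differentiation, the Dzip3 peak lay inside the gene, 579 bp downstream of the nearest of its 3 annotated TSSs, and within a Ring1B peak of 519 bp. It held 70 Dzip3, 131 Ring1B, 12 ubH2A and 2 input reads, so that Dzip3 was 31.7 times input DNA (8.46 to 267) and ubH2A 4.32 times (0.962 to 39.8). Ring1B was 1.93 times Dzip3 there (1.43 to 2.61). At Wnt9a, a ligand of joint formation, the Dzip3 peak lay 5.24 kb into the gene with no Ring1B peak within 10 kb. It held 75 Dzip3, 29 Ring1B, 18 ubH2A and 6 input reads, a Ring1B to Dzip3 ratio of 0.398 (0.25 to 0.618). Ring1B was still 4.51 times input DNA in it (1.84 to 13.3), although no Ring1B peak was listed there.

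At Bmp6 the Dzip3 peak (chr13:38430055-38430292) was 6.70 kb upstream, away from the 3 Ring1B peaks that began at the TSS. It held 80 Dzip3, 47 Ring1B, 45 ubH2A and 0 input reads, and taking 3 input reads as a floor Dzip3 was at least 24.2-fold higher than input DNA. Bmp6 thus had a Dzip3 peak upstream and a Ring1B peak at the TSS in which Dzip3 was low. Fgf1, an Fgf without a secretion signal, had a Dzip3 peak 6.53 kb upstream of a TSS with 56 Dzip3, 26 Ring1B, 60 ubH2A and 15 input reads. A ubH2A peak overlapped it, with 101 ubH2A, 45 Dzip3, 36 Ring1B and 22 input reads. The input reads at Fgf1 were the highest of the 4 Dzip3 peaks, and Dzip3 was 3.38 times input DNA (1.89 to 6.44), the lowest ratio of the 4. Fgf1 and Wnt9a were the members with a ChIP peak but no Ring1B peak.

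ubH2A peaks were near Wnt1, Wnt5b and Wnt7b besides Fgf1. At Wnt1 the ubH2A peak lay downstream of the gene and 3.72 kb from the closest TSS, and overlapped a Ring1B peak of 281 bp. It held 136 ubH2A, 122 Ring1B, 45 Dzip3 and 15 input reads, so that ubH2A and Ring1B were at a like level, with a ratio of Ring1B to ubH2A of 1.16 (0.902 to 1.49). At Wnt7b, 1 ubH2A peak lay inside a Ring1B peak that spanned an internal TSS, with 75 ubH2A, 197 Ring1B, 12 Dzip3 and 7 input reads. The other was 4.15 kb upstream, with 97 ubH2A, 38 Ring1B, 31 Dzip3 and 5 input reads. Wnt5b, a close relative of Wnt5a, had its ubH2A peak 6.82 kb upstream, with 90 ubH2A, 76 Ring1B, 55 Dzip3 and 2 input reads. Its ubH2A level was 32.4 times input DNA (8.72 to 272) and its Ring1B level 35.5 times (9.48 to 298), although no Ring1B peak was listed there. In the strongest Ring1B peaks of Wnt1, Dhh, Shh and Ihh no ubH2A peak was listed, although ubH2A reads exceeded input DNA in each. The ubH2A level was 6.66 times input DNA at Wnt1 (4.23 to 11.0) and 2.93 times at Dhh (1.95 to 4.53). It was 3.02 times at Shh (1.73 to 5.58) and 5.96 times at Ihh (3.65 to 10.3).

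Over all 64 Ring1B peaks of the ligand genes, overlap with the other lists was rare. A Dzip3 peak overlapped 1 of 64 (1.56%, 0.276% to 8.33%), against 15.3% of the 4904 Ring1B peaks near all protein-coding genes. A ubH2A peak overlapped 2 of 64 (3.13%, 0.861% to 10.7%), against 16.4%. An input peak overlapped 0 of 64, which allows a share of up to 4.69% (3 counts of 64), against 8.67%. With the Ring1B peaks that overlap an input peak left out, the share with a Dzip3 peak near all genes fell to 8.73% (7.94% to 9.59%), and the interval of the ligand genes then reached 8.33%. The ubH2A share near all genes then fell to 9.04% (8.24% to 9.92%), inside the interval of the ligand genes. GC content also moved with both shares. Of the Ring1B peaks near all genes with a GC content of at least 55%, 5.59% overlapped a Dzip3 peak, compared with 40.6% of the others, and 56 of the 64 ligand peaks were in the GC-rich class, with 1 overlap (1.79%, 0.316% to 9.45%). In that class the Dzip3 background lay inside the interval of the ligand genes. For ubH2A the shares near all genes were 5.67% in the GC-rich class and 44.4% in the other. Among the ligand peaks they were 1 of 56 and 1 of 8. The part of GC content and of input signal in the differences was not tested.

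Levels in the same peaks were compared with those of all Ring1B peaks near genes. The 64 peaks had a median Ring1B level of 6.65, against 6.18 for all 4904, a median Dzip3 level of 0.997 against 1.37, a median ubH2A level of 0.833 against 1.19 and a median input level of 0.158 against 0.222. Dzip3 was above input DNA in 56 of the 64 peaks and in 4521 of the 4904. The counts for ubH2A were 58 of the 64 and 4598 of the 4904. Dzip3 was above Ring1B in none of the 64 and in 382 of the 4904. Since all these peaks were called on Ring1B, a Ring1B level above that of Dzip3 is favoured by the choice. The median ratio of Dzip3 to Ring1B was 0.129 near ligand genes and 0.218 near all genes. With the peaks that overlap an input peak left out, Dzip3 was above Ring1B in 162 of 4479 near all genes. Their median Dzip3 level was then 1.24 and their median ratio 0.197. Of the 64 peaks, the one with the highest Dzip3 level was at Wnt7a, a ligand of the dorsal limb. It held 58 Dzip3, 68 Ring1B, 54 ubH2A and 6 input reads, a Dzip3 level of 4.97 against a Ring1B level of 5.998. No Dzip3 or ubH2A peak was listed at this place. By family, the median Dzip3 level was 1.00 for Wnt, 0.835 for Fgf, 1.15 for Bmp and 0.925 for hedgehog genes, over 35, 11, 9 and 9 peaks, and the families' quartiles overlapped.

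**Figure D4:**
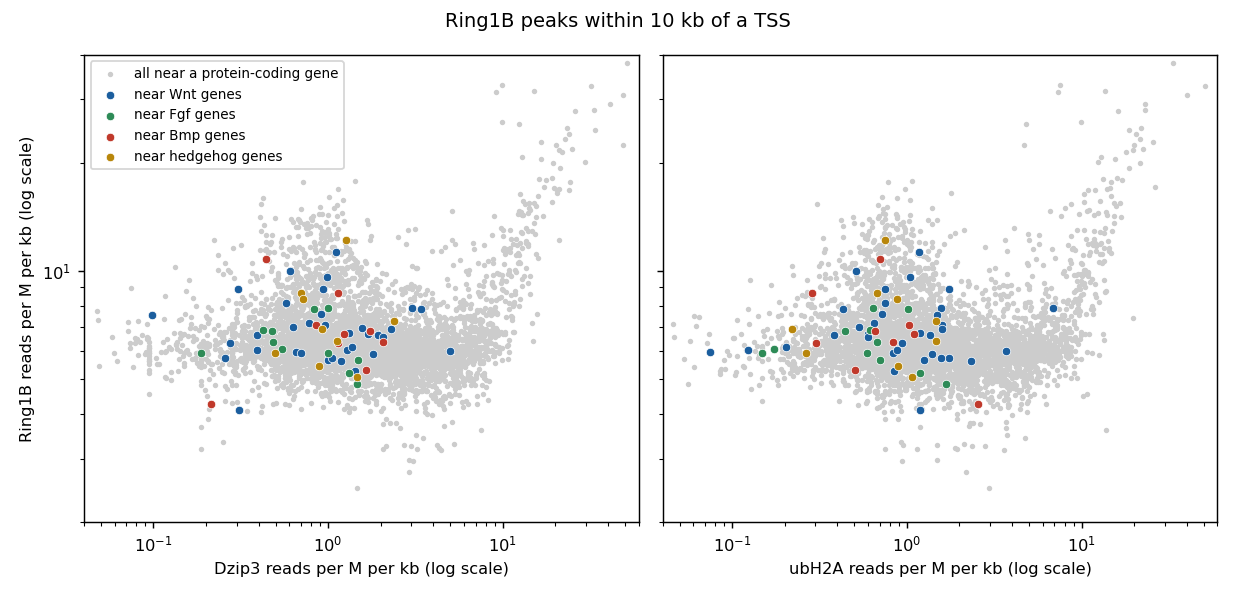
Ring1B level (y axis) against Dzip3 (left) or ubH2A (right) level, in reads per M per kb on log scales, for the Ring1B peaks within 10 kb of any protein-coding TSS (grey) and of the ligand genes (coloured by family). The ligand peaks have Dzip3 levels of 0.0983 to 4.97 and ubH2A levels of 0.0748 to 6.90, and the grey peaks reach above both; of the 4904 grey peaks, 63 and 31 lie outside the left and right panels.

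Base composition was compared next, which the rule did not use. The median GC content of the 64 peaks was 63.6%, against 59.95% for all 4904, and the median ratio of observed to expected CG was 0.712, against 0.577. At the 5′ ends of the genes, over 500 bp to each side, the median observed to expected CG was 0.738 for the 25 genes with a Ring1B peak and 0.443 for the 25 without, and the ranges overlapped (0.480 to 1.08 and 0.175 to 0.997). Calling a 5′ end CpG-rich at a GC content of at least 50% and an observed to expected ratio of at least 0.6, 28 of the 50 members were CpG-rich (56%, 42.3% to 68.8%), against 44.1% of all genes, whose share lay inside the interval, and 19 of the 28 had Ring1B (67.9%, 49.3% to 82.1%), against 17.6% of all CpG-rich genes. Among the 22 other members 6 had Ring1B (27.3%, 13.2% to 48.2%), against 11.5% of all other genes. In both classes the interval of the ligand genes lay above the share of all genes. Dhh and Shh had Ring1B with ratios of 0.480 and 0.554 at the 5′ end. Their strongest Ring1B peaks lay 2.2 and 7.7 kb from the TSS, with ratios of 0.712 and 0.903 in the peak. Wnt9a, Fgf18 and Wnt4 had no Ring1B peak within 10 kb, with ratios at the 5′ end of 0.997, 0.914 and 0.859.

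**Figure D5:**
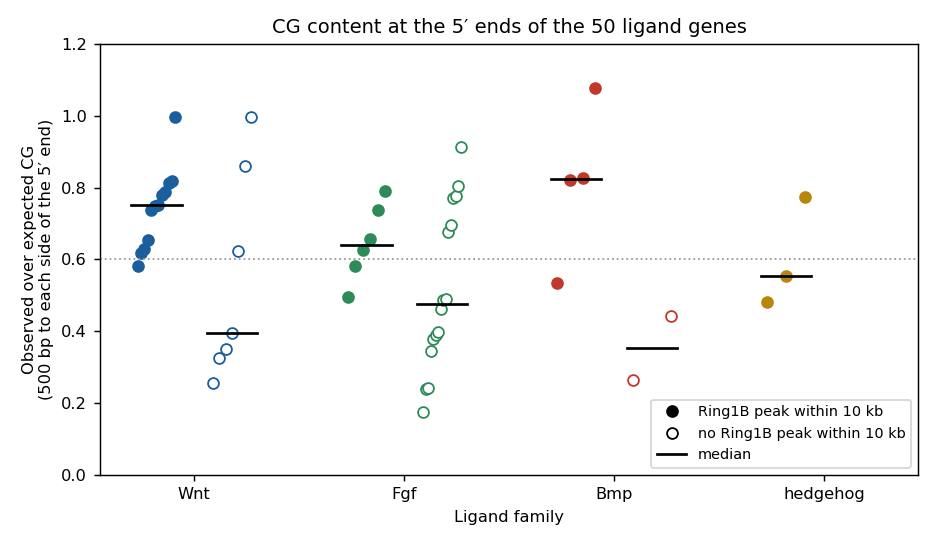
Observed over expected CG within 500 bp of the 5′ end (y axis) of the 50 ligand genes by family (x axis), with filled points for genes with a Ring1B peak within 10 kb, open points for the others, black bars for medians and a dotted line at 0.6. The medians are 0.738 with and 0.443 without Ring1B over all families, and both kinds of gene are found on both sides of the line.

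The receptors, antagonists and targets of the same pathways were counted in the same way. A Ring1B peak was near 6 of 15 Wnt receptor genes, 2 of 5 Fgf receptor genes, 0 of 6 Bmp receptor genes, which allows a share of up to 50%, and 1 of 3 hedgehog receptor genes, together 9 of 29 (31.0%, 17.3% to 49.2%), an interval that overlaps that of the ligand genes. The highest levels among them were 10.8 at Ror2, a receptor of Wnt5a, 11.4 at Fgfr3 and 7.39 at Ptch1. Of 18 genes for secreted or surface antagonists 6 had Ring1B (33.3%, 16.3% to 56.3%), led by Frzb at 9.40, and of 17 intracellular targets and feedback genes 5 had it (29.4%, 13.3% to 53.1%), led by Lef1 at 13.4. Dzip3 peaks were near 4 of the 29 receptor genes (13.8%, 5.50% to 30.6%), against 6.37% of all genes, a share inside that interval. They were near 0 of the 18 antagonists and 17 targets, which allows shares of up to 16.7% and 17.6%, both above that of all genes.

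The 39 Hox genes, the classical Polycomb targets, had Ring1B at 36 genes (92.3%, 79.7% to 97.3%), above the interval of the ligand genes. The median level of the strongest peak per gene was 10.5, against 6.98 for the ligand genes. Of the 36 Hox genes, 94.4% had more than 1 peak, though neighbouring Hox genes share peaks. Their median number of peaks was 7.5, against 2 for the ligand genes with Ring1B, and more peaks favour a higher maximum. Over single peaks, the median Ring1B level was 6.46 near Hox genes, 6.65 near ligand genes and 6.18 near all genes. Of the 132 Ring1B peaks near Hox genes, 1 was overlapped by Dzip3 and 0 by ubH2A, which allows a ubH2A share of up to 2.27%. At the ligand genes these counts were 1 and 2 of 64. The median level of their strongest peak per gene was nearer to that of all genes, 6.23, than to that of the Hox genes. Of 12 naive pluripotency genes 1 had a Ring1B peak (8.33%, 1.49% to 35.4%), namely Esrrb, against 14.2% of all genes. A Dzip3 peak was near 3 of the 12 (25%, 8.89% to 53.2%), against 6.37% of all genes.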

How the data were processed

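ChIP-seq of Dzip3, Ring1B and ubH2A and input DNA of mES cells gave 4 peak lists, 1 per library. The authors aligned reads to mm9 with the Illumina Analysis Pipeline, allowing 1 mismatch, and called peaks on each library, input DNA included, in the Partek Genomics Suite (FDR 0.1); tool versions are not given in the sources used here. The sample labels give shearing with a Picoruptor and the methods of the study micrococcal nuclease. Per the file headers, the lists hold counts of the reads of all 4 libraries in each peak and of extended reads at its height. The deposited RPM is the height scaled by the authors to the library. The deposited p-value against input DNA was used only to rank peaks, and the deposited percent is the part of a peak covered by peaks of another library. The columns of fold and of a rank test against input DNA were not used.

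Reads were divided by the library size implied by the RPM and by peak length. For ubH2A and for input DNA, 1 row that did not hold 18 columns was dropped, and genes in the stretch behind it were left out of counts for those lists. Overlap was read from the listed percent, above 0. Genes, TSSs and sequences came from GENCODE vM1 (Ensembl release 65) and mm9. Whether the listed starts count from 0 or 1 is not given in the sources used here, so positions may be off by 1 bp. Intervals are 95% Wilson intervals for shares, exact Poisson intervals for levels and exact binomial intervals for ratios, and cover counting error only. Where a count was 0, the limit given is 3 counts of the total. Values were named for the 3 Wnt, 3 Fgf, 2 Bmp and all hedgehog genes with the highest Ring1B level and for every gene with a Dzip3 or ubH2A peak. The members and lists were chosen with earlier results of these data known, and the measures of CG and GC content and the Dzip3 sequences after their values were seen. 1 naive pluripotency gene of 13 was not matched in the annotation. On simulated data, all 200 genes with a planted peak among 2000 were found. Alternatives were other distances, the 5′ end only, the stronger 50% of each list, input-overlapping peaks left out, a stricter overlap and levels without peak length. Calculations used Python 3.11.15, numpy 2.4.6, pandas 2.3.3, scipy 1.17.1, pysam 0.24.0 and matplotlib 3.10.9.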

Additional observations from a re-analysis of the deposited data

How the results depend on the processing

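Of 53 comparisons of 11 counts and medians with an alternative, 44 stayed within 1.5 times the reported count or, for the median, within its 95% interval, and 9 did not. With a distance of 4 kb the Ring1B counts were unchanged at 25 ligand genes, but Dzip3 peaks were near 1 gene (2.0%, against 3.13% of all genes) and ubH2A peaks near 2 (4.65%, against 3.37%), compared with 4 each at 10 kb. With a distance of 100 kb there were 20 genes with a Dzip3 peak (40%, against 36.4% of all genes), 16 with a ubH2A peak (37.2%, against 39.02%) and 6 with an input peak (13.95%, against 20.96%). At that distance 13 Fgf genes had a Ring1B peak, and of 120 Ring1B peaks 7 were overlapped by Dzip3 and 8 by ubH2A. The overlap shares of Ring1B peaks near all genes are given here for 10 kb only, so these 2 counts have no background. At 100 kb 72.0% of the ligand genes and 50.3% of all genes had a Ring1B peak, and at 4 kb 50% and 10%. The median Ring1B signal of the strongest peak was 4.79 reads per M where it was not divided by length, which is another unit than the 6.98 per M per kb reported. In the stronger 50% of each list 24 ligand genes had a Ring1B peak (48%, against 9.45% of all genes) and 3 a Dzip3 peak (6.0%, against 4.05%). No paired analysis was possible because each target has a single library. Depth limits what the lists can show: a library without replicates gives counting error only, and Dzip3 or ubH2A below the lowest listed height is not a peak.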
